A study of Sus scrofa with 4 samples.

Results

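The genes described here carry out and serve the first steps of steroid synthesis, from the uptake of cholesterol to the formation of progesterone. They were STAR, STARD3, TSPO, CYP11A1, HSD3B1, FDX1, FDXR and SCARB1, chosen by name, and they filled 8 of the 22309 gene rows of the deposited expression table. The symbol column of the table held 7 of these names. HSD3B1 had no symbol there, and its row was identified by the NCBI gene identifier in the row's description. The Ensembl identifiers of the rows were ENSSSCG00000034942 for STAR, ENSSSCG00000017499 for STARD3, ENSSSCG00000000033 for TSPO, ENSSSCG00000025273 for CYP11A1, ENSSSCG00000006719 for HSD3B1, ENSSSCG00000035945 for FDX1, ENSSSCG00000017227 for FDXR and ENSSSCG00000009759 for SCARB1. Positions are left out because the genome build behind the table was not stated.

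Messenger RNA of pig (Sus scrofa) ovaries taken in diestrus, the luteal part of the oestrous cycle, was measured in 2 libraries from leptin overexpression sows and 2 libraries from wild type (WT) sows. Leptin is the hormone through which fat tissue reports its stores. The transgenic sows were of the second generation of crosses that started from re-cloned leptin overexpressing males and Duroc/Landrace/Yorkshire sows. The sources used here give neither the promoter of the transgene nor the ages of the sows. They also do not say that libraries of one group came from separate animals. A p-value therefore rests on the spread between 2 libraries a group, which may be technical. The tests of single genes also draw on the spread of other genes.

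After ovulation the follicle becomes a corpus luteum, whose cells take cholesterol from lipoproteins and turn it into progesterone, the hormone that maintains pregnancy. Cholesterol enters luteal cells largely through SCARB1, the receptor for high-density lipoprotein. STAR moves it to the inner mitochondrial membrane, the step that limits the rate of acute steroid synthesis. There CYP11A1 cleaves the side chain to give pregnenolone, with electrons that FDXR passes to FDX1 and FDX1 to CYP11A1. HSD3B1 then makes progesterone from pregnenolone. STARD3 carries cholesterol in late endosomes by a domain related to that of STAR, and TSPO is a cholesterol-binding protein of the outer mitochondrial membrane.

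Total counts were 16493113 to 16797511 per library. LEP, the overexpressed gene, had 55 and 124 counts in leptin overexpression and 0 and 3 in WT. The genes of the mitochondrial genome accounted for 15.1% and 16.4% of counts in leptin overexpression and 6.89% and 12.9% in WT. The scaling factors (TMM, which align the bulk of the genes between libraries) were 0.926 and 0.809 in leptin overexpression and 1.34 and 0.999 in WT. WT replicate 1 stood apart at the end of both ranges, so the values below are also given without it where that matters. Without any such factor the median log2 fold change of all genes was -0.43, against -0.012 with it. The most alike libraries over the genes tested were leptin overexpression replicate 1 and WT replicate 2, with a correlation of 0.941. Within groups the correlation was 0.936 for leptin overexpression and 0.917 for WT, so the libraries did not group by genotype.

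Levels can be compared between genes only per length of transcript, for which the FPKM values made by the authors were used. The 8 genes fell into a high group of 4, a middle pair and 2 low genes. STAR was at 5646 and 7089 FPKM in leptin overexpression and 3465 and 5580.1 in WT, which ranked it between 8 and 10 of all rows in each library. HSD3B1 was at 4754 and 4085 FPKM in leptin overexpression and 5028 and 5319.7 in WT. CYP11A1 was at 4557 and 3287 FPKM in leptin overexpression and 2723 and 6478 in WT. These 3 genes overlapped in level, and each of them led in at least 1 library: STAR in both leptin overexpression libraries, HSD3B1 in WT replicate 1 and CYP11A1 in WT replicate 2.

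SCARB1 came next, at 2204 and 1483 FPKM in leptin overexpression and 1327 and 2357 in WT, below CYP11A1 in 4 of 4 libraries. The electron carriers lay about an order of magnitude lower. FDXR was at 199 and 127 FPKM in leptin overexpression and 254 and 222 in WT. FDX1 was at 123 and 144 FPKM in leptin overexpression and 168 and 105 in WT, and was above FDXR in leptin overexpression replicate 2 alone. This order rests on the lengths that counts and FPKM imply, 6561 bases for FDX1 and 1884 for FDXR. In counts FDX1 was above FDXR in every library. TSPO was at 16.7 and 20.7 FPKM in leptin overexpression and 31.4 and 23 in WT. STARD3 was lowest throughout, at 0 and 0.49 FPKM in leptin overexpression and 4.01 and 3.56 in WT.

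**Figure D1:**
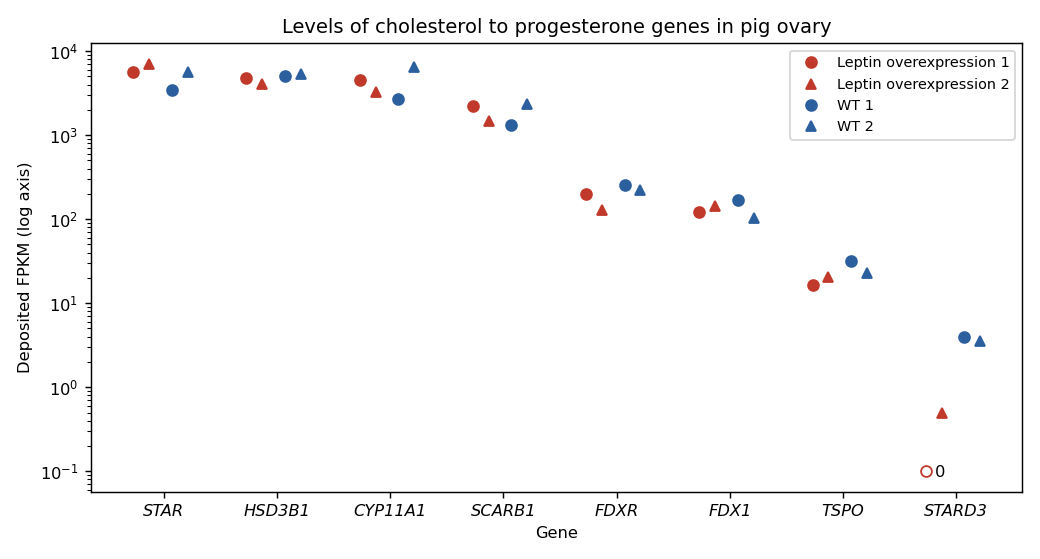
Deposited FPKM on a log axis for each of the 8 genes in each library, leptin overexpression in red and WT in blue; a circle is replicate 1 and a triangle replicate 2, and the open circle marks STARD3 at 0 FPKM. STAR, HSD3B1 and CYP11A1 share the top of the range, and in 4 of 4 libraries SCARB1 lies below them and TSPO and STARD3 lie lowest.

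Together the 8 genes took 3.88% and 3.73% of all counts in leptin overexpression, with exact binomial 95% intervals of 3.87% to 3.88% and 3.72% to 3.74%, and 2.79% and 4.34% in WT, with intervals of 2.78% to 2.79% and 4.33% to 4.35%. These intervals cover counting error only. The 2 leptin overexpression libraries lay between the 2 WT libraries. The mean share was 3.8% ± 0.105 in leptin overexpression and 3.57% ± 1.1 in WT (SD, n = 2 each; exact permutation test, two-sided, p = 1; the smallest p that 2 against 2 allows is 0.333). STAR, HSD3B1, CYP11A1 and SCARB1 made up 96.9% and 96.8% of these counts in leptin overexpression and 94.2% and 97.4% in WT.

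The comparison of genotypes asks whether these transcripts differ in sows with leptin overexpression, and the series design names steroidogenic enzymes among its readouts. All 8 genes passed the filter on low counts. By edgeR's quasi-likelihood test over 13937 genes, 0 of the 8 passed an adjusted p of 0.05, where 0.0287% of all genes tested were called, 4 higher and 0 lower. At an unadjusted p under 0.05 there was 1 of the 8, STARD3, against 4.04% of all genes in the higher and 5.32% in the lower direction. DESeq2 called the same gene, and 2.19% of all genes tested. The log2 fold changes of 5 genes were positive and of 3 negative, with a median of 0.12 against -0.012 over all genes tested. The levels that follow are CPM, counts scaled to library size with the TMM factors. Fold changes are leptin overexpression over WT.

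STAR was at 16531 and 23749.6 CPM in leptin overexpression and 7016 and 15150.1 in WT. Both leptin overexpression libraries were above both WT libraries, WT replicate 2 closely below leptin overexpression replicate 1. The means were 20140.4 ± 5104 CPM in leptin overexpression and 11083 ± 5752 in WT (SD, n = 2 each). The log2 fold change of 0.86 (SE 0.66, edgeR adjusted p = 0.663) was smaller than the difference of 1.11 between the 2 WT libraries. Leaving out WT replicate 1 gave 0.39, and leaving out WT replicate 2 gave 1.48. The order of the libraries for STAR was that of the share of counts of mitochondrially encoded genes, 13 of 13 of which had groups that did not overlap, higher in leptin overexpression, against 22.2% of all genes tested. The part of that shift in the STAR values was not tested.

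CYP11A1, which cleaves the cholesterol side chain, was at 9236 and 7624 CPM in leptin overexpression and 3819 and 12171 in WT. The leptin overexpression libraries lay between those of WT, which differed by 1.67 on the log2 scale. The log2 fold change was 0.076 (SE 0.68, edgeR adjusted p = 0.976). Leaving out WT replicate 1 gave -0.55 and leaving out WT replicate 2 gave 1.11, so that its sign depended on which WT library was kept. With total counts alone it was -0.23, which is 0.20 relative to the median of all genes.

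SCARB1, which takes up lipoprotein cholesterol, was at 6314 and 4865 CPM in leptin overexpression and 2569 and 6247 in WT. WT replicate 1 was low and the other 3 libraries were close to each other. The log2 fold change of 0.34 (SE 0.62, edgeR adjusted p = 0.86) became -0.18 when WT replicate 1 was left out and 1.09 when WT replicate 2 was. HSD3B1, which forms progesterone, was at 8495 and 8354 CPM in leptin overexpression and 6217 and 8812 in WT. It differed least between the leptin overexpression libraries, by 0.024 on the log2 scale, against 0.50 within WT. Its log2 fold change was 0.16 (SE 0.57, edgeR adjusted p = 0.93) and -0.23 with total counts alone, which is 0.21 relative to the median of all genes.

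Of the electron carriers, FDX1 was at 871 and 1167 CPM in leptin overexpression and 822 and 688 in WT, with groups that did not overlap. The log2 fold change was 0.43 (SE 0.47, edgeR adjusted p = 0.76); with total counts alone it was -0.029, which is 0.40 relative to the median of all genes. FDXR, which reduces FDX1, was at 405 and 296 CPM in leptin overexpression and 359 and 416 in WT, with a log2 fold change of -0.15 (SE 0.43, edgeR adjusted p = 0.918). TSPO was at 15 and 21.3 CPM in leptin overexpression and 19.6 and 19.1 in WT. The leptin overexpression libraries bracketed those of WT, and the log2 fold change was -0.092 (SE 0.40, edgeR adjusted p = 0.945).

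STARD3, the endosomal cholesterol carrier, was the gene with the largest difference of the 8. It had expected counts of 0 and 14.75 in leptin overexpression and 137.73 and 110.15 in WT, or 0 and 1.12 CPM in leptin overexpression and 6.26 and 6.56 CPM in WT. The 2 WT libraries were close and both leptin overexpression libraries were far below them. The ratio of pooled counts per scaled library size, leptin overexpression over WT, was 0.0818 (95% counting interval 0.0451 to 0.137). The log2 fold change of -3.53 (SE 1.22) had an unadjusted p of 0.0205 and did not pass over all genes (edgeR adjusted p = 0.433). It passed with DESeq2 (adjusted p = 0.0483), where 1.47% of genes tested were called lower, and with edgeR on total counts alone (adjusted p = 0.00168), where 3.95% of genes were called, 3.43% of genes tested in the lower direction. It also passed with limma-trend on log2(FPKM + 1) (log2 difference -1.97, adjusted p = 0.0022), where 2.34% were called and 1.84% lower, and on log2(FPKM + 0.1) (log2 difference -4, adjusted p = 2.97e-05), where 3.72% were called and 2.96% lower. Without WT replicate 1 or 2, a fit that holds none of the spread within WT, it passed edgeR at adjusted p of 0.0194 and 0.016, where 1.04% and 4.33% of genes were called, 0.646% and 2.61% lower. Without leptin overexpression replicate 1, the library at 0, the log2 fold change was -2.51 (edgeR adjusted p = 0.202). Without leptin overexpression replicate 2 the fitted value was -9.86 (edgeR adjusted p = 0.62), which rests on a count of 0 and is no measure of size, and limma-voom gave -5.14 (adjusted p = 0.531).

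The expected counts of STARD3 were not whole numbers in 3 of 4 libraries. In the RefSeq annotation (Sscrofa11.1, used only for the order of genes) the next protein-coding gene on one side is PPP1R1B, an inhibitor of protein phosphatase. Its row had 1523 and 695.25 expected counts in leptin overexpression and 961.63 and 1397.85 in WT. The fractions of the 2 rows added up to a whole number, within 0.025, in leptin overexpression replicate 2 and WT replicate 2, where the sums were 710 and 1508, but not in WT replicate 1, where the sum was 1099.36. Whether reads were divided between the 2 rows was not tested, and the level of STARD3 is uncertain for that reason. With the rows summed, the level was 99.3 and 53 CPM in leptin overexpression and 49.9 and 89.9 in WT, and the log2 fold change was 0.12 (edgeR adjusted p = 0.934). PPP1R1B makes up most of this sum, so it does not measure STARD3.

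The counts of FDX1 were fractional too. Together with those of its neighbour RDX, a cytoskeletal linker, they came to whole numbers in 4 of 4 libraries. FDX1 had 13360.77 and 15641.94 expected counts in leptin overexpression and 18132.80 and 11538.91 in WT, and RDX had 4022.23 and 6551.06 in leptin overexpression and 3074.20 and 4007.09 in WT. The level of FDX1 is likewise uncertain. The sum was 1134 and 1656 CPM in leptin overexpression and 961 and 927 in WT, and its groups did not overlap either. The fractions of STAR came to whole numbers with those of ASH2L, whose 364 to 1018 expected counts are few beside the 154785 to 318215 of STAR. CYP11A1, HSD3B1, FDXR, SCARB1 and TSPO had whole counts in every library.

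**Figure D2:**
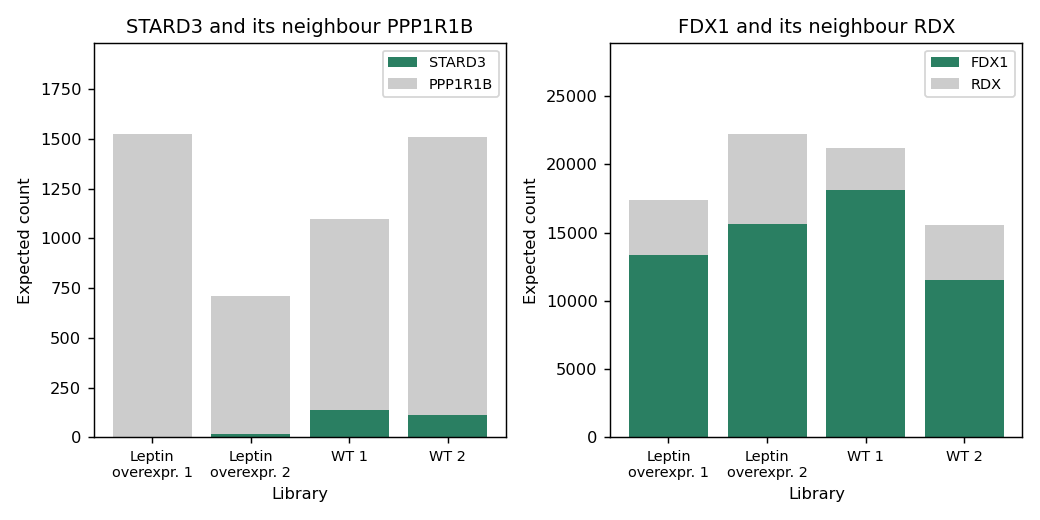
Expected counts per library, stacked, for STARD3 with PPP1R1B and for FDX1 with RDX, the gene of the pathway in green and its neighbour in grey. STARD3 is a small part of its column, 0 and 14.75 counts in leptin overexpression and 137.73 and 110.15 in WT, whereas FDX1 is the larger part of its column in 4 of 4 libraries.

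**Figure D3:**
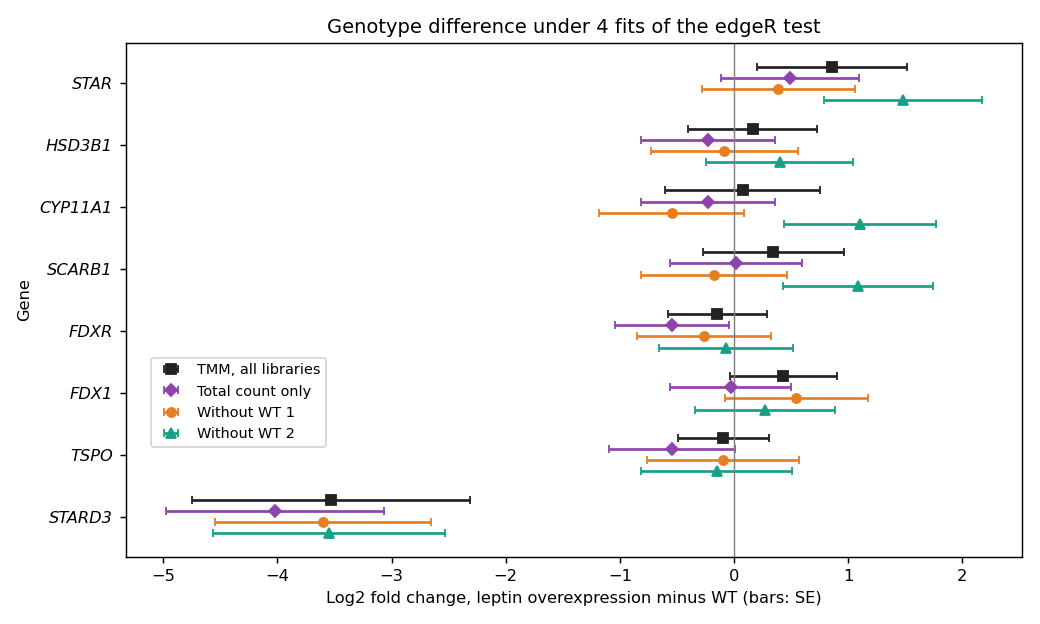
Log2 fold change of leptin overexpression minus WT for each gene by edgeR's test, with SE bars, for the fit with TMM factors, for total counts alone, and for the fits that leave out WT replicate 1 or WT replicate 2. STAR stays to the right of 0 and STARD3 to the left under all 4 fits shown, while CYP11A1 runs from -0.55 to 1.11.

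The scale decided which groups overlapped. In TMM-scaled CPM, 2 of the 8 genes, STAR and FDX1, had leptin overexpression libraries above both WT libraries, 25% of the 8 against 22.2% of genes tested, and STARD3 alone had both below, 12.5% against 22.9%. In FPKM, which carries no TMM factor, STAR alone was above, 12.5% against 6.85%. STARD3, TSPO, HSD3B1 and FDXR were below, 50% against 39.7% of genes tested. STAR and STARD3 were thus the 2 genes whose groups did not overlap on either scale. For 5 of the 8 genes, STAR, CYP11A1, HSD3B1, FDXR and SCARB1, the 2 WT libraries differed by more than the genotypes did. The share of all genes tested for which this holds was not counted, so it cannot be read as a trait of these genes.

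Ratios between genes of one library do not depend on its scaling. CYP11A1 stood at 2.07 and 2.22 times SCARB1 in leptin overexpression and 2.05 and 2.75 times in WT, in FPKM, although both genes varied by more than that between libraries. HSD3B1 stood at 1.04 and 1.24 times CYP11A1 in leptin overexpression and 1.85 and 0.821 times in WT. STAR stood at 1.24 and 2.16 times CYP11A1 in leptin overexpression and 1.27 and 0.861 times in WT. These ratios overlapped between the groups.

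FDX1 stood at 0.618 and 1.13 times FDXR in leptin overexpression and 0.660 and 0.473 times in WT, and SCARB1 at 0.390 and 0.209 times STAR in leptin overexpression and 0.383 and 0.422 times in WT. Leptin overexpression replicate 2 set both apart. FDX1 stood at 0.0270 and 0.0438 times CYP11A1 in leptin overexpression and 0.0615 and 0.0162 times in WT. Exact permutation tests of the 5 ratios planned and computed gave p of 0.667 for STAR to CYP11A1, FDX1 to FDXR and SCARB1 to STAR and 1 for the other two, each 1 after Benjamini-Hochberg adjustment, where 0.333 is the smallest p possible. The ratio of STAR to STARD3 could not be computed, as STARD3 is listed at 0 in one library.

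Of the 21 pairs of genes with a ratio in every library, 5 had groups that did not overlap, or 23.8%, against 43.4% of all pairs of tested genes. STAR was in 3 of the 5. It stood at 1.19 and 1.74 times HSD3B1 in leptin overexpression and 0.689 and 1.05 times in WT, a difference of 0.76 in the mean log2 ratio. It stood at 28.4 and 55.8 times FDXR in leptin overexpression and 13.7 and 25.2 times in WT, and at 339 and 343 times TSPO in leptin overexpression and 110.2 and 242 times in WT. The other two pairs were SCARB1 to FDXR, at 11.1 and 11.7 in leptin overexpression and 5.23 and 10.6 in WT, and FDX1 to TSPO, at 7.38 and 6.97 in leptin overexpression and 5.33 and 4.55 in WT. A share below that of all pairs is no sign of a difference in this pathway.

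**Figure D4:**
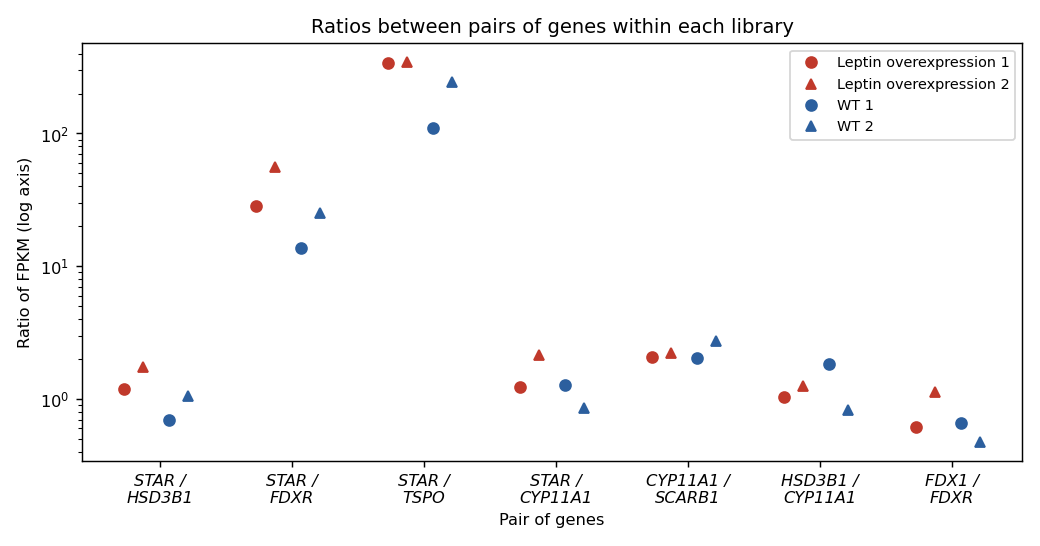
Ratio of the FPKM of 2 genes within each library, on a log axis, leptin overexpression in red and WT in blue, a circle for replicate 1 and a triangle for replicate 2. STAR relative to HSD3B1, FDXR and TSPO is higher in both leptin overexpression libraries than in either WT library, whereas the ratios of STAR, HSD3B1 and SCARB1 with CYP11A1, and of FDX1 to FDXR, overlap.

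The genes did not share one profile over the libraries. By the root mean square difference of log2 CPM, each gene centred on its mean over the 4 libraries, SCARB1 was place 32 among 3306 genes of at least 50 CPM in likeness to CYP11A1 (0.17), while HSD3B1 was place 439 (0.43) and STAR place 604 (0.47). STARD3 and TSPO lie below that level and were not ranked. The genes most like CYP11A1 were WLS (0.037), which carries Wnt proteins to the cell surface, PLAAT3 (0.057), a phospholipase, and ADIPOR2 (0.062), a receptor of adiponectin. Those most like STAR were TMEM30A (0.054), a subunit of lipid flippases, HPRT1 (0.065), of purine salvage, and ARRDC4 (0.080). Those most like HSD3B1 were ACP2 (0.018), a lysosomal phosphatase, ANXA4 (0.023), an annexin, and GNPTG (0.026), of lysosomal enzyme sorting. These are descriptions over 4 libraries that share their depth and scaling.

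The order of libraries for CYP11A1, with WT replicate 2 highest, then leptin overexpression replicate 1, leptin overexpression replicate 2 and WT replicate 1, was also that of the summed level of the 8 luteal markers. That sum was 1831 and 1065 CPM in leptin overexpression and 329.5 and 6022 in WT. RLN2, the relaxin of the corpus luteum, made up much of it, at 1164 and 344 CPM in leptin overexpression and 68.2 and 4499 in WT, and PTGFR, the receptor through which prostaglandin F ends the life of the corpus luteum, was at 444 and 351 CPM in leptin overexpression and 151 and 1314 in WT. These and PRLR, the prolactin receptor, were the 3 of the 8 markers with that order. EDNRB, an endothelin receptor, was at 43 and 243 CPM in leptin overexpression and 17 and 40.6 in WT, and LHCGR, the receptor of luteinising hormone, was at 24.1 and 44 CPM in leptin overexpression and 32.6 and 31.5 in WT. The summed level of the 5 theca markers, at 865 and 393 CPM in leptin overexpression and 211 and 1754 in WT, ran in the same order, but that order is the one of CYP17A1, which made up most of the sum. INSL3, a hormone of theca cells, was at 7.37 and 33.5 CPM in leptin overexpression and 22.3 and 25.3 in WT. Of the luteal markers OXT had no counts other than in WT replicate 1, where it had 9. In bulk tissue fewer luteal cells and less RNA per cell cannot be told apart, and the part of these markers in the CYP11A1 values was not tested.

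Of the marker lists of other cells, the summed levels of epithelium, smooth muscle, immune cells and oocytes did not overlap between the groups and were lower in leptin overexpression. Single genes were lower without overlap in 22.9% of all genes tested. The 6 epithelial markers summed to 6.39 and 68 CPM in leptin overexpression and 484 and 271 in WT, with 5 of 6 lower without overlap. OVGP1 made up most of the WT sums, at 0.0652 and 1.19 CPM in leptin overexpression and 316 and 183 in WT. EPCAM overlapped, at 2.54 and 57.1 CPM in leptin overexpression and 33.8 and 7.75 in WT. The 5 smooth muscle markers summed to 444 and 695 CPM in leptin overexpression and 1109 and 1103 in WT, with 5 of 5 lower without overlap. The granulosa list, at 1416 and 1076 CPM in leptin overexpression and 1005 and 1281 in WT, overlapped, as did the stroma list, at 3183 and 2535 CPM in leptin overexpression and 3314 and 1932 in WT. Single granulosa markers differed in direction. SERPINE2 was higher without overlap, at 646 and 662 CPM in leptin overexpression and 300 and 593 in WT. INHA was lower without overlap, at 252 and 137 CPM in leptin overexpression and 564 and 299 in WT. CYP19A1, chosen after its values were seen, was at 197 and 161 CPM in leptin overexpression and 9.2 and 197 in WT. Summed levels were 837 and 387 CPM in leptin overexpression and 681 and 1258 in WT for endothelium, 232 and 73.9 CPM in leptin overexpression and 149 and 305 in WT for red cells, and 94.2 and 121 CPM in leptin overexpression and 142 and 165 in WT for immune cells, of whose 7 markers 3 were lower without overlap. The oocyte markers summed to 20.7 and 23.1 CPM in leptin overexpression and 139.7 and 23.1 in WT, with 2 of 6 lower without overlap and DAZL at 0 in each library. WT replicate 2 was level with leptin overexpression there, so the separation rested on WT replicate 1, and without it the list's median log2 fold change was -0.054. The adrenal cortex, the other large source of STAR and CYP11A1, is marked by CYP21A2 and MC2R, which together were at 2.09 and 0.672 CPM in leptin overexpression and 0.272 and 2.15 in WT. The part of these shifts in the steroidogenic genes was not tested.

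Around the 8 genes, 71 genes in 6 lists were examined, of which 66 had a row and 65 were tested. By edgeR's quasi-likelihood test 0 passed in either direction, against 4 higher and 0 lower of all genes tested. At an unadjusted p under 0.05, 5 of the 65 were higher and 4 lower, against 4.04% and 5.32% of all genes tested. DESeq2 called 2 higher, CYB5A and ACSL4, and 1 lower, TSPOAP1, against 0.718% and 1.47% of all genes tested. The median log2 fold change of the 65 was 0.12, against -0.012 over all genes, and leaving out WT replicate 1 gave -0.048 and leaving out WT replicate 2 gave 0.38. With WT replicate 2 left out, 6 passed edgeR higher and 2 lower, where 1.71% and 2.61% of all genes did. On total counts alone 0 passed higher, where 0.524% of all genes did, and 4 lower, where 3.43% did. With limma-trend on log2(FPKM + 1), 1 was higher and 2 lower, where 0.502% and 1.84% of all genes were. On log2(FPKM + 0.1), 2 were higher and 3 lower, where 0.753% and 2.96% were.

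CYB5A, cytochrome b5, which raises the lyase activity of CYP17A1, was the most abundant gene of the electron supply list. It was at 5698 and 12509 CPM in leptin overexpression and 1482 and 2902 in WT, each leptin overexpression library above both WT libraries. The log2 fold change, 2.05 (SE 0.67), passed DESeq2 (adjusted p = 0.00625) but not edgeR (adjusted p = 0.377), and it was 1.38 without leptin overexpression replicate 2 and 2.57 without WT replicate 2, where it passed edgeR (adjusted p = 0.0133). CYB5R3, its reductase, was at 354 and 276 CPM in leptin overexpression and 126 and 423 in WT. The 7 tested genes of this list had 4 positive and 3 negative log2 fold changes, with a median of 0.13.

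Of 13 partners of cholesterol transfer at mitochondria, ACSL4 had the highest mean FPKM. It is a ligase of arachidonate that takes part in hormone induction of STAR in rodent cells. In leptin overexpression its FPKM was above that of VDAC2, at 232 and 480 against 208 and 242. In WT it was below VDAC2, at 89.2 and 144 FPKM against 280 and 184. ACSL4 thus led its list in leptin overexpression only. It was at 1398 and 3304 CPM in leptin overexpression and 371 and 805 in WT (log2 fold change 2.00, SE 0.64; edgeR adjusted p = 0.368, DESeq2 adjusted p = 0.0153). It passed edgeR without WT replicate 2 (adjusted p = 0.00877) and was at 1.25 without leptin overexpression replicate 2. VDAC2, a channel of the outer membrane, was at 347 and 463 CPM in leptin overexpression and 325 and 285 in WT. TSPOAP1, which binds TSPO and was chosen after its values were seen, was at 0.978 and 0.448 CPM in leptin overexpression and 9.79 and 3.7 in WT, from 15 and 6 counts in leptin overexpression and 216 and 62 in WT. Its log2 fold change of -3.22 (SE 0.80) had edgeR adjusted p = 0.249 and DESeq2 adjusted p = 0.0108, and passed edgeR without WT replicate 2 (adjusted p = 0.0012) but not without WT replicate 1 (-2.37, adjusted p = 0.615).

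Of 13 genes of cholesterol supply, 7 had positive and 6 negative log2 fold changes (median 0.014). LIPA, the lysosomal lipase that frees cholesterol, was at 1366 and 1024 CPM in leptin overexpression and 652 and 1714 in WT. It was lowest in WT replicate 1 and had the library order of CYP11A1. APOE, LRP8 and ABCA1, chosen after their values were seen, were the 3 of this list with an unadjusted p under 0.05, all with lower values in leptin overexpression. ABCA1, which exports cholesterol, was at 34.8 and 29.8 CPM in leptin overexpression and 84.6 and 74.3 in WT (log2 fold change -1.30, SE 0.35, edgeR adjusted p = 0.279). APOE, an apolipoprotein, was at 236 and 175 CPM in leptin overexpression and 842 and 359 in WT (log2 fold change -1.54, SE 0.53, edgeR adjusted p = 0.419), and the edgeR result depended on the WT libraries, at -2.07 without WT replicate 2 (adjusted p = 0.011) and -0.82 without WT replicate 1 (adjusted p = 0.997). LRP8, a receptor that binds APOE, was at 169 and 61.6 CPM in leptin overexpression and 197 and 393 in WT. Its log2 fold change was -1.36 (SE 0.58, edgeR adjusted p = 0.524), and -0.80 without WT replicate 2. All 3 passed edgeR on total counts alone, where 3.43% of genes tested were called lower. APOE and LRP8 also passed limma-trend on log2(FPKM + 1) (adjusted p = 0.011 and 0.00806), where 1.84% were called lower. On log2(FPKM + 0.1) they passed too (limma-trend adjusted p = 0.00112 and 7.65e-04), where 2.96% were.

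The START family, whose lipid-binding domain STAR and STARD3 share, had 10 tested genes with a median log2 fold change of 0.39, 6 positive and 4 negative. STARD4, which moves cholesterol in the cytosol, was at 114 and 268 CPM in leptin overexpression and 21.4 and 126 in WT (log2 fold change 1.38, SE 0.83, edgeR adjusted p = 0.607), and PCTP, a carrier of phosphatidylcholine, was at 36.3 and 25.7 CPM in leptin overexpression and 35.7 and 57.1 in WT. STARD4 depended on the WT libraries: its log2 fold change was 3.11 without WT replicate 2 (edgeR adjusted p = 3.66e-04), 0.58 without WT replicate 1 (edgeR adjusted p = 0.997) and 0.63 without leptin overexpression replicate 2.

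Regulators of these genes had a median log2 fold change of 0.086 over 13 tested, 7 positive and 6 negative. NR5A2, a nuclear receptor that drives luteal steroid genes, was at 495 and 558 CPM in leptin overexpression and 655 and 401 in WT, and PRKAR1A, which holds protein kinase A inactive, at 411 and 511 CPM in leptin overexpression and 341 and 421 in WT. Of the 9 tested genes of progesterone metabolism and response, 6 were positive and 3 negative, with a median of 0.36. PGRMC1, a membrane protein linked to progesterone, was at 1626 and 1579.7 CPM in leptin overexpression and 431 and 1558 in WT, and CYP17A1, which turns progesterone and pregnenolone towards androgens, at 835 and 336 CPM in leptin overexpression and 156 and 1699 in WT.

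**Figure D5:**
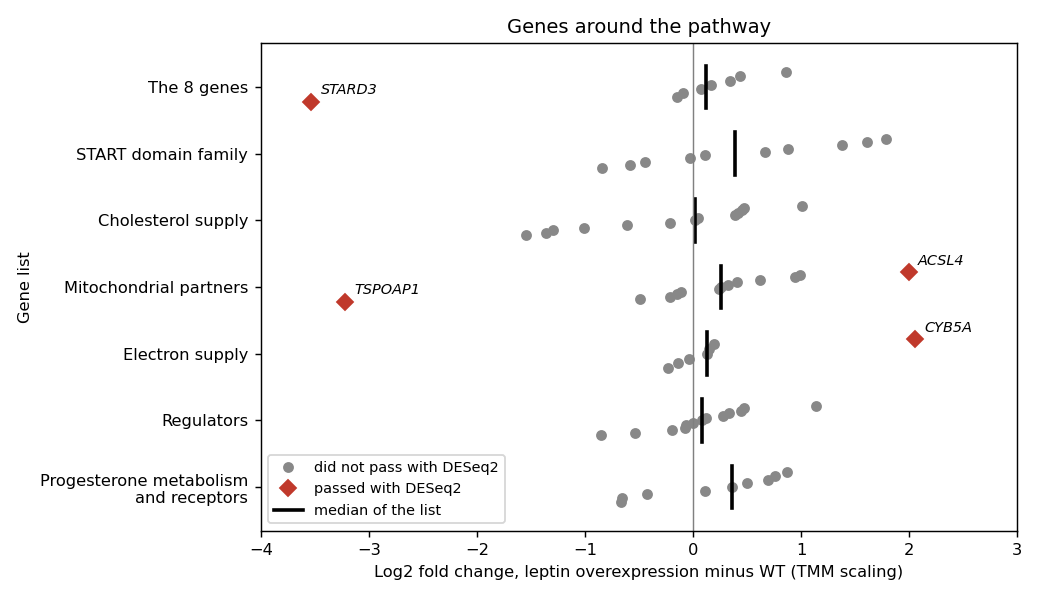
Log2 fold change (TMM scaling) of leptin overexpression minus WT for the tested genes of each list, 1 point per gene, spread vertically for legibility, with the list's median as a black bar; red diamonds passed with DESeq2 and grey points did not. STARD3 and TSPOAP1 lie near -3.5 and -3.2 and ACSL4 and CYB5A near 2, while the medians of the lists lie between 0.014 and 0.39.

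In the deposited annotation 4 of the 8 genes, STAR, CYP11A1, HSD3B1 and SCARB1, carried the KEGG pathway Ovarian Steroidogenesis, which 47 rows of the table carried. Of these, 40 were tested, 21 with a positive and 19 with a negative log2 fold change (median 0.081), and 0 passed by edgeR or DESeq2, with 0 higher and 3 lower at an unadjusted p under 0.05, against 4.04% and 5.32% of all genes tested.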

How the data were processed

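The deposited expected counts per gene are estimates per library and carry no depth scaling, per the file headers; 84.5% to 87.3% of them were whole within 0.005. The authors also deposited FPKM, which is relative to transcript length and library size. Among the tools in the submitters' processing notes, given without roles, are RSEM, HISAT2, edgeR 3.32.0, StringTie 1.3.1, DESeq2, fastp 0.18.0 and Bowtie2 2.2.8. No genome build or strand setting is given in the sources used here, and a gene that overlaps another or has an antisense partner may share its reads. RNA was poly(A)-enriched, per the labels' protocols.

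Control columns were taken as WT samples by their number. Counts were rounded to whole numbers, filtered with filterByExpr (13937 genes kept, 8372 removed), scaled with TMM and tested with edgeR 4.0.16 (quasi-likelihood, robust, a genotype term alone, leaving 2 residual degrees of freedom; limma 3.58.1, DESeq2 1.42.0, R 4.3.3), with Benjamini-Hochberg adjustment over all genes. The SE of a fold change was taken from it and its F statistic (size over root F). The test was also run on simulated counts with a fixed spread between libraries that was not taken from these data. That run does not show how the test behaves at the spread seen here. A library with a count of 0 allows up to 3 counts, or 0.179 to 0.182 CPM before scaling.

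The 8 genes and the lists were chosen with earlier results of these data known, as were the fits. Named genes were the 8, the 2 of each list with the highest mean FPKM, the 3 nearest in profile to STAR, CYP11A1 and HSD3B1, and LEP; exceptions are stated, and 1 gene under this rule is not reported here. Promoter motifs were planned, but sequences were not used here. Alternatives were RLE, upper-quartile or no scaling factors, TMM without mitochondrially encoded genes, 2 other filters, DESeq2, limma-voom, limma-trend on log2(FPKM + 1) and log2(FPKM + 0.1), the replicate number as a block, each library left out, and, added after seeing the data, STARD3 summed with PPP1R1B and the ratios of every pair of the 8 genes.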

Additional observations from a re-analysis of the deposited data

How the results depend on the processing

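The number of the 8 genes past the threshold was 0 and became 1, STARD3 each time, with total counts alone, DESeq2, limma-trend on log2(FPKM + 1) or log2(FPKM + 0.1), and without either WT library, giving a range of 0 to 1 over the fits that leave out a library. Of all genes, 4 were called higher and 0 lower; upper-quartile factors gave 7 and 4, total counts alone 73 and 478, no filter 84 and 168, DESeq2 100 and 205, limma-voom 1 and 0, limma-trend 70 and 256 on log2(FPKM + 1) and 105 and 413 on log2(FPKM + 0.1), and fits without a library 0 to 239 and 0 to 364. The listed genes around the pathway gave 0 higher and 0 lower, but 2 and 1 with DESeq2, 1 and 2 with log2(FPKM + 1), 2 and 3 with log2(FPKM + 0.1), 0 and 4 with total counts alone, 0 and 1 with no filter, and 0 to 6 and 0 to 2 without a library. The cause of these differences was not tested.

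The deviations of same-numbered libraries had a correlation of -0.0995 across genes. With 2 libraries a group, this value cannot show whether the numbers pair libraries. With the replicate block 11 genes were called higher and 12 lower, and 0 of the 8. The signs that turned were those of CYP11A1 (-0.23 with total counts alone, -0.12 on log2(FPKM + 1) and on log2(FPKM + 0.1), -0.55 to 1.11 without a library), HSD3B1 (-0.23 with total counts alone and on both FPKM scales, -0.084 to 0.40 without a library), FDX1 (-0.029 with total counts alone), FDXR (-0.39 to 0.063 without a library), SCARB1 (-0.18 to 1.09), TSPO (-0.37 to 0.14) and STARD3 summed with PPP1R1B (0.12). The upper-quartile factors moved the median of all genes to -0.11, total counts alone to -0.43, and the FPKM scales to -0.30 and -0.40. Without a library, the log2 ratio of HSD3B1 to CYP11A1 ran from -0.70 to 0.47 and that of FDX1 to CYP11A1 from -0.84 to 1.09, and the share of counts from -0.54 to 1.02 percentage points; in summed FPKM the share difference was -0.27 percentage points, against 0.24 in counts. STAR kept its sign under every fit run, from 0.39 to 1.48, and passed under none; STARD3 as deposited kept its sign under every fit run, from -9.86 to -1.97. With 2 libraries a group, a p that misses the threshold does not show that levels are alike.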
